A study of Mus musculus with 6 samples.

Results

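The genes described here are the mouse receptors for immunoglobulin G (IgG) of the Fc gamma family, their shared signalling chain and the neonatal Fc receptor. The rule takes the rows whose gene symbol is Fcgr1, Fcgr2b, Fcgr3, Fcgr4, Fcer1g or Fcgrt and uses no measured value, although the family was picked with earlier results of these data known. Of these 6 names, 5 matched a row, among 13940 symbols in the table and 13042 genes tested; no row matched Fcer1g, which was not analysed here. The 5 rows all passed the checks on the table, and no filter on low values was applied.

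The series compared 3 RNA libraries from 3 days with 3 libraries from 7 days after a contusion of the mouse spinal cord at T8. All 6 were made by precipitating tagged ribosomes (RiboTag) from the lesion, and the mice were LysMCre:Rplfl/fl > CD45.1 chimeras in both groups, so the Cre, the floxed Rpl allele, the CD45.1 strain and the contusion are common to all libraries, and no uninjured cord is among the samples. LysM-Cre is active in macrophages and also in neutrophils and other myeloid cells. As such labels are usually read, marrow with the tag was given to CD45.1 hosts, whose own cells carry no tag. No age is given, and nothing in the labels ties a library to an animal of its own; the tests therefore weigh the times against the spread of these libraries alone, which may be technical. Values are FPKM, fragments scaled to transcript length and to library size, which can be compared between genes because they are given per length. The number of reads behind a value is unknown. The most frequent ratio between low FPKM values rests on only 19 to 33 genes a library. It placed the other 5 libraries at 0.763 to 0.940 of the depth of 3-day replicate 1, if each was scaled to its own fragments. Only ratios in a narrow range around equal depth were searched. A larger difference in depth could therefore not have been found, and these values do not show that the depths were alike.

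Fc gamma receptors bind the constant part of IgG on opsonised targets and immune complexes. In the mouse, Fcgr1 (the high-affinity receptor), Fcgr3 and Fcgr4 encode activating receptors that pair with the gamma chain, whose tyrosine motif is phosphorylated by Src family kinases and then recruits the kinase Syk, leading to engulfment and an oxidative burst. Fcgr2b encodes the inhibitory receptor, which carries its own inhibitory tyrosine motif and recruits the lipid phosphatase SHIP1 (Inpp5d). Fcgrt encodes the neonatal receptor FcRn, which pairs with beta-2-microglobulin (B2m) and returns internalised IgG and albumin to the cell surface. Macrophages and microglia use these receptors to clear antibody-coated material such as myelin debris.

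Fcgr2b and Fcgr3 are close copies in part of their coding sequence, and the sequences of exon 3 of a transcript of each are shown because this bears on how well their values can be told apart. Both are coding sequence on the minus strand of chromosome 1 in mm10, at chr1:170967980-170968234 for Fcgr2b and chr1:171057691-171057945 for Fcgr3, read from the GENCODE M21 transcripts, and capitals mark the bases at which they differ.
Fcgr2b: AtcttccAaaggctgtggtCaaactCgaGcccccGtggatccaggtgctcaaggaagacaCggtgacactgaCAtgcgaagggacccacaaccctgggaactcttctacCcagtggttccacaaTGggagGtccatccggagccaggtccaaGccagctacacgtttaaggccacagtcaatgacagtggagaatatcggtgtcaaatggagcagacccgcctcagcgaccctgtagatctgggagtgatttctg
Fcgr3: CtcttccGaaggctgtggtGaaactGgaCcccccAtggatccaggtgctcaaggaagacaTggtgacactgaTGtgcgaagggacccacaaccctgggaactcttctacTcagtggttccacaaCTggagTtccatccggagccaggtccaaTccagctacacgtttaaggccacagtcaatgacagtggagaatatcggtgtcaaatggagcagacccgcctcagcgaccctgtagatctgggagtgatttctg
Of the 255 bases, 14 differed, so 94.5% were identical, and the longest run shared was 129 bases. Over all annotated transcripts, 9.58% of the 50-base windows of Fcgr3 also occurred in Fcgr2b, and 2.54% of its 100-base windows did. For Fcgr2b the shares were 2.92% and 0.753%, and no other pair of members shared a 50-base window. The read length is not given in the sources used here, and how the authors' counting divided reads from shared stretches was not tested, so the levels of Fcgr2b and Fcgr3 are uncertain to that extent.

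Among the activating receptors, Fcgr3 nearly doubled between 3 and 7 days while Fcgr1 fell. Fcgr3, the low-affinity receptor that binds immune complexes, measured 247, 339 and 391 FPKM in the 3-day libraries and 605, 669 and 633 FPKM in the 7-day libraries. Every 7-day value lay above every 3-day value, with 3-day replicate 1 the lowest. Its mean rose 1.95-fold, from 326 ± 72.9 to 636 ± 32.1 FPKM (SD, n = 3), a log2 change of 0.99 ± 0.18 (SE; 95% interval 0.57 to 1.41; limma adjusted p = 0.00573). Fcgr1, the receptor that binds monomeric IgG with high affinity, measured 320.4, 312 and 463 FPKM at 3 days and 183, 228 and 221 FPKM at 7 days. The times did not overlap, and 3-day replicate 3 stood highest. Its mean fell from 365 ± 84.8 to 211 ± 23.8 FPKM, a log2 change of -0.77 ± 0.18 (95% interval -1.19 to -0.36; limma adjusted p = 0.0138). Without 7-day replicate 1, its lowest library, the adjusted p for Fcgr1 was 0.0510.

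Fcgr4, the receptor for IgG2 subclasses, measured 52.6, 98.2 and 101 FPKM at 3 days and 104, 132 and 122 FPKM at 7 days. The times did not overlap, but 3-day replicate 1 was well below the other 3-day libraries, and 3-day replicate 3 and 7-day replicate 1 nearly met. The log2 change was 0.56 ± 0.25 (95% interval -0.02 to 1.13), which did not pass the test (limma adjusted p = 0.109), and it was 0.26 without 3-day replicate 1. The authors' deposited table gives Fcgr4 a q-value of 0.00135, so the authors' test and limma differ on this gene.

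The inhibitory receptor gene Fcgr2b measured 612, 670.3 and 903 FPKM at 3 days and 594, 566 and 557 FPKM at 7 days. All 7-day libraries were below all 3-day libraries, by a small margin between 3-day replicate 1 and 7-day replicate 1, and 3-day replicate 3 was far above the rest. The means were 728 ± 154 and 573 ± 19.4 FPKM, with a log2 change of -0.33 ± 0.17 (95% interval -0.73 to 0.07; limma adjusted p = 0.162; authors' deposited table, q = 0.162). Without 3-day replicate 3 the log2 change was -0.16. With quantile normalization, which forces the same distribution on every library, it was -0.61 and passed the test (adjusted p = 0.0157).

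Fcgrt, the gene of FcRn, was the most even of the members. It measured 38.5, 36.9 and 36.6 FPKM at 3 days and 39.1, 42.0 and 38.2 FPKM at 7 days, and the times overlapped. The log2 change was 0.09 ± 0.09 (95% interval -0.11 to 0.29; limma adjusted p = 0.431), so a change of more than 0.29 in either direction lies outside the interval.

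**Figure D1:**
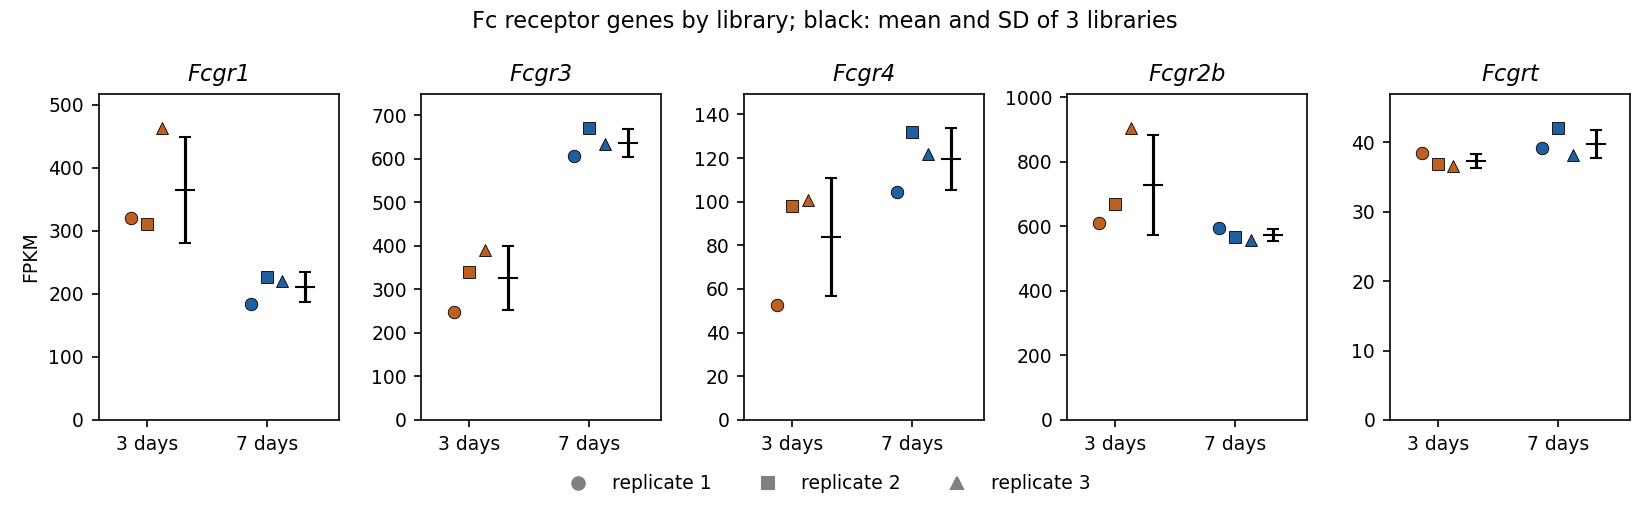
FPKM (vertical axis, linear, from 0) of the 5 genes in each of the 3 libraries at 3 days (orange) and at 7 days (blue); the marker shape gives the replicate number and the black bars the mean and SD. Fcgr3 rose from 326 to 636 FPKM and Fcgr1 fell from 365 to 211 FPKM, while Fcgr2b, Fcgr4 and Fcgrt did not pass the test.

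With 0.05 as the highest adjusted p for a call, 1 of the 5 members was called higher and 1 lower. Of all genes tested, 18.8% were called higher and 20.3% lower, 39.1% in all, so 2 of 5 members is close to the share of all genes. The 5 members all have a mean of 5 FPKM or more, and of the 8067 genes at that level 2305 were called higher and 1204 lower. The 3 libraries of each time did not overlap for 4 of the 5 members, higher for Fcgr3 and Fcgr4 and lower for Fcgr1 and Fcgr2b. This was so for 55.4% of all genes tested, 26.8% higher and 28.6% lower. The authors' deposited table gives a q-value of 0.05 or less to 3 of the members, Fcgr1, Fcgr3 and Fcgr4, and to 38.4% of the genes tested. The smallest p an exact permutation of 3 and 3 libraries allows is 0.1. The limma p-values can be lower because they assume normally distributed values, with variance borrowed from other genes.

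**Figure D2:**
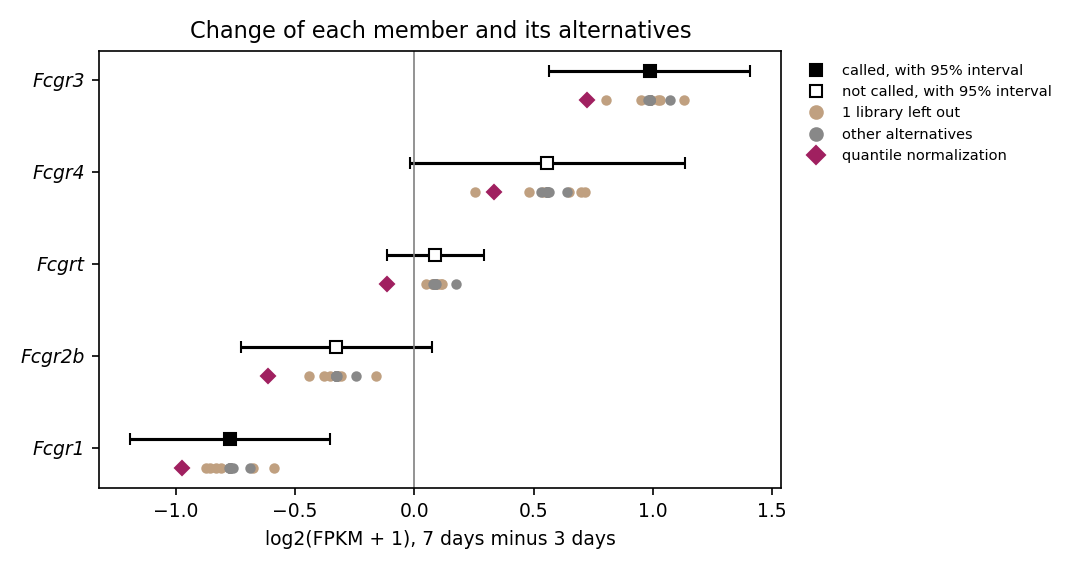
Difference of log2(FPKM + 1), 7 days minus 3 days (horizontal axis), for each gene, with squares and bars for the estimate and its 95% interval (filled where called) and points below for each alternative processing. The points of Fcgr3 (0.72 to 1.13) and of Fcgr1 (-0.97 to -0.59) stay on their side of 0, and the point of Fcgrt with quantile normalization lies below 0.

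The rows of Fcgr1 and of its neighbours need care. In the table, Fcgr1 is given the interval 96245966 to 96294011 of chromosome 3 (mm10), although the GENCODE gene runs from 96282909 to 96293969, and the rest of the interval holds replication-dependent histone genes. The rows of Hist2h2bb and Hist2h3c1 carry the same interval. Hist2h2bb measured 296, 336 and 306 FPKM at 3 days and 189.9, 295 and 229 FPKM at 7 days, and Hist2h3c1 stayed between 1.46 and 2.32 FPKM. Neither was called (limma adjusted p = 0.0878 and 0.131). Whether reads of the histone genes entered the Fcgr1 value was not tested. The GENCODE genes of Fcgr2b (chr1:170958617-170976547, minus strand), Fcgr4 (chr1:171018920-171029761, plus strand) and Fcgr3 (chr1:171051174-171064935, minus strand) lie side by side, and Fcgrt lies at chr7:45092990-45103851 on the minus strand. Annotated antisense transcripts overlap Fcgr2b and Fcgrt, and whether the counting used strand is not given in the sources used here.

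The order of the levels differed between the times. At 3 days Fcgr2b was the most abundant of the 5 in FPKM (612 to 903), above Fcgr1 (312 to 463) and Fcgr3 (247 to 391), which overlapped each other, and then came Fcgr4 (52.6 to 101) and Fcgrt (36.6 to 38.5). At 7 days Fcgr3 (605 to 669) was first and Fcgr2b (557 to 594) second, without overlap but by only 605 against 594 FPKM in replicate 1. Fcgr1 (183 to 228), Fcgr4 (104 to 132) and Fcgrt (38.2 to 42.0) followed in the same order as before, with no overlap between neighbours. Among the 13042 genes, Fcgr3 moved from rank 95 to 160 in the 3-day libraries to rank 47 to 50 at 7 days. Fcgr2b stood at rank 22 to 36 and then at 56 to 70, and Fcgr1 at rank 77 to 132 and then at 252 to 307. Such ranks do not depend on how libraries were scaled to each other.

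Ratios within a library are likewise free of that scaling. The Fcgr3 to Fcgr1 ratio was 0.771, 1.09 and 0.845 at 3 days and 3.30, 2.94 and 2.87 at 7 days. The Fcgr3 to Fcgr2b ratio was 0.404, 0.505 and 0.433 at 3 days and 1.02, 1.18 and 1.14 at 7 days. Both ratios were higher in every 7-day library. The inhibitory over the summed activating receptors (Fcgr2b over Fcgr1 plus Fcgr3 plus Fcgr4) was 0.986, 0.895 and 0.946 at 3 days and 0.665, 0.550 and 0.571 at 7 days. It was thus lower in every 7-day library, with means of 0.943 ± 0.0455 and 0.596 ± 0.0613 (SD, n = 3). That fall rests on Fcgr3: with Fcgr3 left out of the sum, the ratio was 1.603 to 1.64 at 3 days and 1.57 to 2.06 at 7 days, and the times overlapped. These ratios are given as descriptions, without a test, and a reassignment of shared reads between Fcgr2b and Fcgr3 would move them.

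The summed FPKM of the 4 classical receptors overlapped between the times, from 1232 to 1858 at 3 days and from 1487 to 1596 at 7 days. The make-up of that sum differed. Fcgr3 supplied 20.1% to 23.9% of it at 3 days and 40.7% to 42.0% at 7 days, and Fcgr1 went from between 21.96% and 26.0% to between 12.3% and 14.4%. Fcgr2b supplied 47.2% to 49.7% and then 35.5% to 40.0%. Fcgr4 stayed the smallest part, at 4.27% to 6.92% and then 7.02% to 8.28%.

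**Figure D3:**
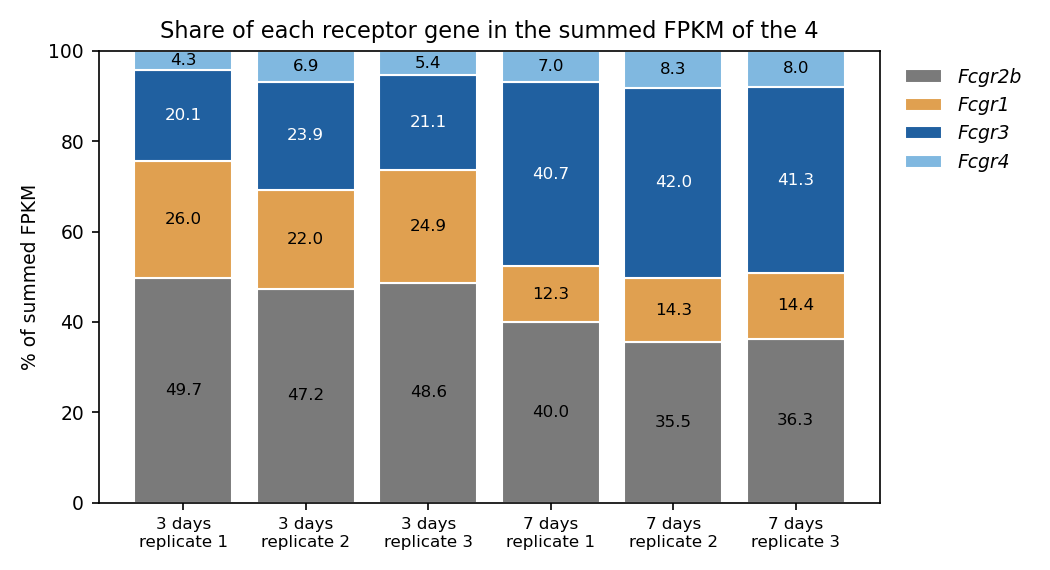
Share of each receptor gene, in percent of the summed FPKM of Fcgr1, Fcgr2b, Fcgr3 and Fcgr4 (vertical axis), in each library (bars). The blue Fcgr3 segment is between 20.1% and 23.9% in the 3-day bars and between 40.7% and 42.0% in the 7-day bars.

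The values were also set beside other cells' markers, because a precipitate can hold RNA of several cell types, and in such bulk samples fewer cells of a type and less RNA per cell cannot be told apart. Of 7 tested macrophage markers, 3 were called higher and 2 lower. For this and the other marker lists, the shares of all genes tested were 18.8% called higher and 20.3% lower. The macrophage markers summed to 1038 to 1073 FPKM at 3 days and 1181 to 1216 FPKM at 7 days. Relative to the mean log2 level of these markers, Fcgr3 stood 1.45 to 2.07 above at 3 days and 2.64 to 2.77 above at 7 days. Fcgr1 stood 1.82 to 2.31 above and then 0.92 to 1.24 above, so the opposite moves of both genes were also seen against macrophage markers. Fcgr2b stood 2.75 to 3.27 and then 2.53 to 2.61 above. Fcgr4, at -0.76 to 0.16 and then 0.12 to 0.43, and Fcgrt, at -1.31 to -1.20 and then -1.28 to -1.20, overlapped between the times on this scale. Microglia markers were called higher in 6 of 7 (summed FPKM 754 to 945, then 2244 to 2472). The sums of inflammatory monocyte markers, called lower in 5 of 7, were 474 to 545 FPKM and then 180.4 to 235 FPKM. Both lists moved with the members, and their part in the changes of Fcgr3 and Fcgr1 was not tested.

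Markers of other cells that can carry Fc receptors were at lower levels. Neutrophil markers summed to 86.0 to 102 FPKM and then 81.2 to 98.9 FPKM, with 2 of 9 called higher and 3 lower, and Mpo was listed at 0 in all 7-day libraries and in 3-day replicate 1. T and NK cell markers summed to at most 6.65 FPKM (1 of 5 higher, 1 lower) and mast cell and basophil markers to at most 5.37 FPKM (2 of 2 lower). B and plasma cell markers summed to 44.6 to 52.9 and then 53.7 to 60.2 FPKM (2 of 4 higher). Most of that sum was Xbp1 and Sdc1, which were not called, while the B cell genes Cd79b and Cd22 rose, Cd79b from 0.923 ± 0.357 to 3.10 ± 0.336 FPKM and Cd22 from 3.96 ± 0.646 to 11.6 ± 1.87 FPKM. Dendritic cell markers summed to 11.8 to 14.5 and then 32.8 to 39.7 FPKM, with 1 of 3 called higher. That gene was Itgax, which macrophages can also express, at 12.1 ± 0.931 and then 36.9 ± 4.28 FPKM. Zbtb46 (0.693 and 0.331 FPKM) was not called, and neither was Ccr7, listed at 0 in all 7-day libraries and in 3-day replicate 3. Endothelial markers (endothelium uses FcRn) summed to 41.8 to 68.4 and then 26.5 to 31.4 FPKM (5 of 7 lower, 1 higher). Astrocyte, oligodendrocyte, neuron, fibroblast and pericyte, and erythroid markers were called lower in 5 of 6, 7 of 7, 8 of 8, 4 of 6 and 4 of 4, and the first 4 of these had their highest sums in 3-day replicate 2, where no member had its highest or lowest 3-day value except Fcgr1 (lowest, 312 FPKM). Leaving that library out changed no call among the members.

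Genes that carry the signal of activating receptors were mostly at higher values at 7 days. Of 18 tested, 10 were called higher and 0 lower, with a median log2 change of 0.35 beside -0.04 for all genes tested, and 18.8% of all genes called higher. All 18 have a mean of 5 FPKM or more, and genes at such levels lean to higher values. Among the 8067 genes at that level the median was 0.16, with 2305 called higher and 1204 lower. The kinase Tec rose from a mean of 31.9 ± 5.87 (SD, n = 3) to 66.6 ± 7.08 FPKM (log2 1.05). The adaptors Gab2 and Lat2 rose too, Gab2 from 14.7 ± 2.36 to 26.3 ± 3.36 FPKM (0.80) and Lat2 from 98.1 ± 15.3 to 167 ± 16.8 FPKM (0.77). Syk, the kinase that docks on the gamma chain motif, rose from 45.8 ± 7.97 to 71.7 ± 5.12 FPKM (log2 0.65 ± 0.14; limma adjusted p = 0.0110; 0.0608 with quantile normalization). The count was 6 without 7-day replicate 2, 6 without 7-day replicate 3, and 4 higher with 1 lower with quantile normalization. Without 3-day replicate 2, which had the most neural marker RNA, 9 genes were called higher and 2 lower.

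Phagocyte NADPH oxidase genes, which make the oxidative burst, were called higher in 5 of 6 and lower in 0, with a median log2 change of 0.49. The shares of all genes tested were 18.8% higher and 20.3% lower. With a mean of 5 FPKM or more, as all 6 genes have, 2305 of 8067 genes were higher and 1204 lower (median 0.16). Cybb, the catalytic subunit, rose 3.34-fold from 197 ± 38.8 to 660 ± 68.3 FPKM (log2 1.75 ± 0.17; limma adjusted p = 6.89e-04). Its membrane partner Cyba rose from 193 ± 34.0 to 310.1 ± 54.1 FPKM, and the cytosolic subunit gene Ncf4 from 20.9 ± 3.18 to 31.1 ± 0.858 FPKM. The small GTPase gene Rac2 was also called higher, with a log2 change of 0.39 (adjusted p = 0.0409). The count was 3 without 7-day replicate 2 or 7-day replicate 3 and 2 with quantile normalization; Cyba lost its call in all 3 cases (adjusted p up to 0.0766).

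Of 10 inhibitory signalling genes tested, 2 were called higher and 2 lower (median log2 change 0.10), close to the 18.8% and 20.3% of all genes. All 10 have a mean of 5 FPKM or more, and of the 8067 genes at that level 2305 were higher and 1204 lower (median 0.16). Ptpn6, the phosphatase SHP-1, rose from 118 ± 7.86 to 181 ± 14.7 FPKM (log2 0.62; limma adjusted p = 0.00445). The docking proteins Dok2 and Dok3 fell, Dok2 from 7.83 ± 0.232 to 3.08 ± 0.415 FPKM and Dok3 from 12.5 ± 2.28 to 6.92 ± 0.809 FPKM, while Dok1 rose from 9.68 ± 2.00 to 14.1 ± 1.08 FPKM and lost its call without any library but 3-day replicate 3 and with quantile normalization (adjusted p up to 0.113). Inpp5d, the phosphatase recruited by the inhibitory receptor, measured 67.7 ± 6.45 and 82.9 ± 2.22 FPKM and narrowly missed the threshold (adjusted p = 0.0503).

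Other receptors that use the gamma chain were lower at 7 days in 3 of 4 tested and higher in 1 (median log2 change -0.58). The shares of all genes tested were 20.3% lower and 18.8% higher. With a mean of 5 FPKM or more, as all 4 have, 1204 of 8067 genes were lower and 2305 higher (median 0.16). The C-type lectins Clec4n (Dectin-2) and Clec4d fell, the first from 145 ± 24.5 to 68.0 ± 13.1 FPKM and Clec4d from 172 ± 12.5 to 102 ± 17.4 FPKM. Clec4e (Mincle) went from 16.6 ± 1.63 to 12.4 ± 1.72 FPKM at an adjusted p of 0.0499, and lost its call in 9 of 15 alternatives (up to 0.149), among them leaving out any library but 7-day replicate 1. The paired receptor Pira2 rose from 9.99 ± 1.39 to 16.1 ± 0.748 FPKM; it has close copies, so its value is uncertain. Fcgr1, an activating receptor of the same chain, fell as these lectins did, and Fcgr3 rose. Tyrobp, the other ITAM adaptor of myeloid cells, rose from 242 ± 61.1 to 896 ± 167 FPKM (log2 1.90).

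Of the partner of FcRn and further Fc receptor relatives, 3 of 5 tested were called higher and 1 lower, beside 18.8% and 20.3% of all genes. B2m rose from 1838 ± 647 to 4207 ± 914 FPKM (log2 1.23 ± 0.33; limma adjusted p = 0.0230), while Fcgrt, whose product it pairs with, had a log2 change of 0.09. The B2m call was lost with quantile normalization (adjusted p = 0.135) and without 3-day replicate 1 (0.0648), 3-day replicate 2 (0.0692), 7-day replicate 2 (0.0812) or 7-day replicate 3 (0.0727). The Fc receptor-like genes Fcrls and Fcrl1 rose, Fcrls from 41.9 ± 7.44 to 104 ± 6.72 FPKM and Fcrl1 from 3.07 ± 0.550 to 11.2 ± 1.03 FPKM, and Fcrlb fell from 4.29 ± 0.447 to 1.06 ± 0.0603 FPKM. Immunoglobulin transcripts, the ligands' own genes, stayed low: the 5 tested summed to 2.65 to 5.21 FPKM at 3 days and 7.34 to 12.5 FPKM at 7 days, 2 called higher and 0 lower. The heavy chain gene Ighg2b was at 0.185, 0.197 and 0 FPKM at 3 days and at 2.28, 1.15 and 1.27 FPKM at 7 days (limma adjusted p = 0.00603). The other gene called was Ighg2c (log2 0.76, adjusted p = 0.0108), and both drop out where a mean of 1 FPKM or more is asked for, which left 0 calls. These transcripts come from B lineage cells and do not measure IgG protein in the tissue.

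Genes known to set the level of Fc receptor genes were split, 5 of 10 called higher and 3 lower (median log2 change 0.18). The shares of all genes tested were 18.8% higher and 20.3% lower. At a mean of 5 FPKM or more, which all 10 reach, 2305 of 8067 genes were higher and 1204 lower (median 0.16). Both chains of the interferon-gamma receptor rose, Ifngr1 from 65.3 ± 2.37 to 139 ± 15.6 FPKM and Ifngr2 from 19.2 ± 1.31 to 36.5 ± 2.89 FPKM. Stat2, which acts in the type I interferon response, fell from 36.99 ± 3.998 to 12.3 ± 0.733 FPKM. The complement C5a receptor gene C5ar1 fell from 73.0 ± 2.64 to 36.5 ± 1.97 FPKM (log2 -0.98; limma adjusted p = 5.24e-04). Irf8 (log2 0.81), Il10ra (0.86) and Stat6 (0.34) were called higher as well.

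**Figure D4:**
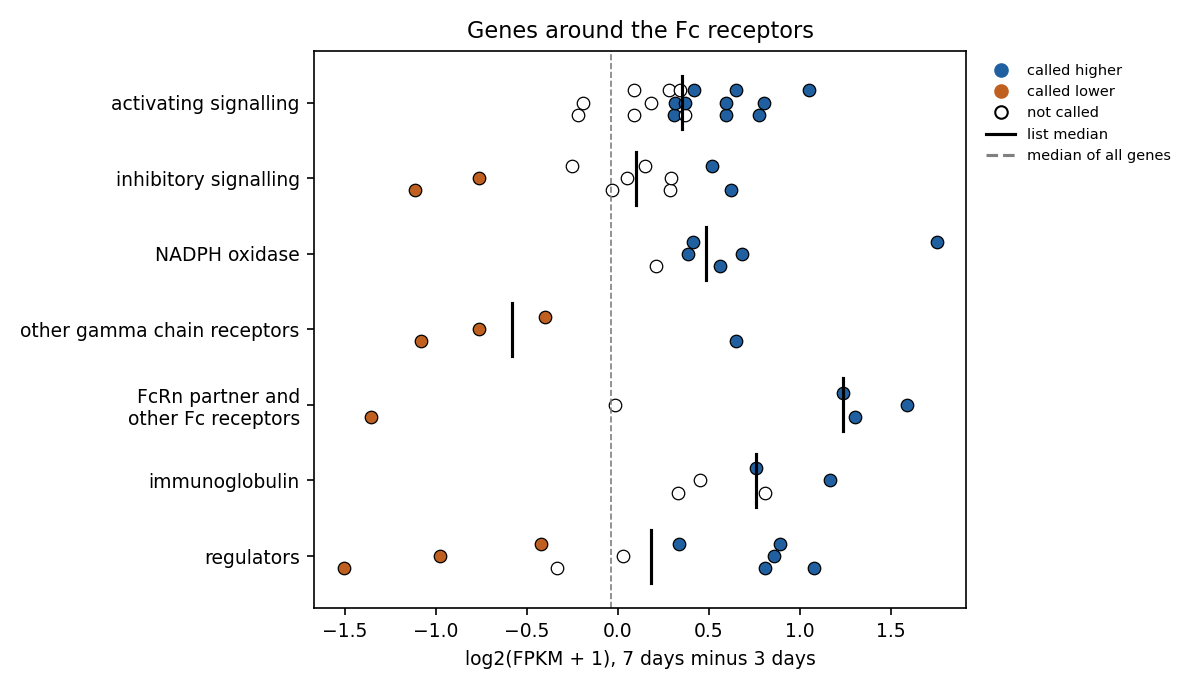
Difference of log2(FPKM + 1), 7 days minus 3 days (horizontal axis), of each tested gene in 7 lists around the Fc receptors, filled where called (blue higher, orange lower); black bars are list medians and the dashed line the median of all genes tested. The activating signalling and NADPH oxidase lists hold 10 and 5 genes called higher and 0 called lower, and the other gamma chain receptors hold 3 called lower and 1 higher. Of all genes tested, 18.8% were called higher and 20.3% lower.

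The start regions of the 3 activating receptor genes are shown because these genes take different courses in the same libraries. They run from 250 bases before to 50 bases after the RefSeq start (build GRCm38.p6, the mm10 assembly), at chr3:96293920-96294219 on the minus strand for Fcgr1, chr1:171059354-171059653 on the minus strand for Fcgr3 and chr1:171018676-171018975 on the plus strand for Fcgr4. The Fcgr3 start used here lies inside the GENCODE gene. Capitals mark matches, on either strand, to GAGGAA (the core bound by PU.1 and related factors), TTCNNNGAA (the interferon-gamma activated site, which reads alike on both strands) and to the interferon-stimulated response element core (GAAA, any 2 bases, GAAA).
Fcgr1: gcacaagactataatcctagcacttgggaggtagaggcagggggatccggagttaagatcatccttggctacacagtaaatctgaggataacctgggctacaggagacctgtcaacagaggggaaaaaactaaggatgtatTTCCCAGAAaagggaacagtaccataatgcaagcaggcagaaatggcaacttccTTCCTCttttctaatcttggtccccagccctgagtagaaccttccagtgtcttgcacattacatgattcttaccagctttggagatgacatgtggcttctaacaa
Fcgr3: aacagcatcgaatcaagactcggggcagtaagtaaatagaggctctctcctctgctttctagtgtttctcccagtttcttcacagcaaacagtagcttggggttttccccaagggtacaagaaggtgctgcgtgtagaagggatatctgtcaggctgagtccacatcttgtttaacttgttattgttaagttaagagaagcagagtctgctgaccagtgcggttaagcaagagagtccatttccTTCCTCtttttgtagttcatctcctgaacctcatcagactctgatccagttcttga
Fcgr4: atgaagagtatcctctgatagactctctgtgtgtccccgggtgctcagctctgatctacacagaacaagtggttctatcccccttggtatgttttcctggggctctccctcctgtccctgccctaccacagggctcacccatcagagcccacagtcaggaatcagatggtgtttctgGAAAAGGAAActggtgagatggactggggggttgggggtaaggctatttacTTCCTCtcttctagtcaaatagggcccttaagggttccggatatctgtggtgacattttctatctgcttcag
GAGGAA occurred once in each of the 3, on the opposite strand, 55, 6 and 22 bases before the start in Fcgr1, Fcgr3 and Fcgr4, and in 28.3% of 27025 promoters of the same length. TTCNNNGAA occurred in Fcgr1, 109 bases before the start, and in 8.47% of promoters. The response element core occurred in Fcgr4, 73 bases before the start, and in 3.49% of promoters. The windows of Fcgr2b, Fcgrt and Fcer1g hold none of the 3 motifs. No match overlapped another, and a match is a description of the sequence, not a measured site.

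Across the 6 libraries, the genes whose log2(FPKM + 1) followed each member most closely were found among 6334 genes with a time mean of 10 FPKM or more. For Fcgr1 these were Irf9 (Pearson r = 0.989), Syvn1 (0.988) and Myd88 (0.988), and for Fcgr3 they were Milr1 (0.998), Mettl21a (0.997) and Ezh1 (0.996). For Fcgr4 they were Serf1 (0.995), Fbxo44 (0.993) and Sharpin (0.989), for Fcgr2b Ralgds (0.977), Elp2 (0.967) and Fyco1 (0.959), and for Fcgrt Rhoq (0.990), Vapa (0.988) and Alkbh3 (0.988). The r of Ralgds leans on 3-day replicate 3, also the highest for Fcgr2b: Ralgds was at 38.4 FPKM there and at 4.86 to 9.84 FPKM elsewhere. An r of 0.9 or more was reached by 1092 genes for Fcgr3, 274 for Fcgr1, 231 for Fcgr4, 71 for Fcgrt and 41 for Fcgr2b. With 6 libraries of 2 times that share their processing, these values are descriptions. Between members, r was 0.881 for Fcgr3 and Fcgr4 and 0.869 for Fcgr1 and Fcgr2b, and -0.695 for Fcgr1 and Fcgr3.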

How the data were processed

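The labels' protocols name the ScriptSeq v2 kit for the RiboTag RNA. TopHat2 2.0.12, Cufflinks 2.2, Cuffdiff 2.2.1 and mm10 appear in the submitters' processing notes, but their roles are not given. The authors deposited an FPKM value per gene and library and a mean FPKM per time, per the file headers; the scaling between libraries is not given in the sources used here. The authors also deposited a log2 fold change, a p-value and q-value and a test statistic, a score, from their own test. A filtered copy of the table served as an alternative.

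Of 13960 rows, 918 were set aside: a status other than OK, library values missing the deposited mean by over 1%, a 0 beside 100 FPKM or more, or a repeated symbol. The other 13042 genes were tested as log2(FPKM + 1) with limma 3.58.1 (R 4.3.3), with a mean-dependent prior variance, two-sided, with Benjamini-Hochberg adjustment over all of them; calls needed an adjusted p no higher than 0.05. Log2 changes are differences on that scale, which understates changes of low genes; means and SD are of FPKM. The fit was tested on simulated data with 200 changed genes. Ratios, shares and ranks were computed from FPKM with Python 3.11.15 (numpy 2.4.6, pandas 2.3.3).

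The members and lists were chosen with earlier results of these data known. Beside the members, the text names the called genes of each list that changed most (at most 4, at 1 FPKM or more in the higher time mean), B2m, Syk, Inpp5d, Ptpn6 and Tyrobp always, and the 3 genes most alike each member. Other genes (the histone rows at Fcgr1, Rac2, Ighg2c, the single B cell and dendritic cell markers, Irf8, Il10ra, Stat6 and the neighbours in the closing section) were chosen after their values were seen, as were the promoter motifs. Some genes that these rules name are not reported here.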

Additional observations from a re-analysis of the deposited data

How the results depend on the processing

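The members, the pathway list counts and the counts over all genes were recomputed under 15 alternatives, and so were the genes named by rule, save Fcrlb (14) and Ighg2b (13), which a filter on low values removes; ratios, marker lists and genes named after their values were seen were not. Fcgr3 stayed called higher in all 15 (log2 0.72 to 1.13, adjusted p up to 0.0273), and Fcgr1 stayed lower in all 15 (log2 -0.97 to -0.59; -0.87 to -0.59 with 1 library left out, adjusted p 0.0208 to 0.0510) but was not called without 7-day replicate 1 (log2 -0.68). Quantile normalization made Fcgr2b called lower (log2 -0.61; -0.44 to -0.16 with 1 library left out) and turned Fcgrt to -0.11 (adjusted p = 0.337); the cause was not tested. Fcgr4 had a log2 change of 0.26 to 0.72 with 1 library left out and was not called in any of these. The replicate numbers are only numbers in the labels: deviations of same-numbered libraries correlated across genes at 0.0995, 0.00545 and 0.00465, and not every library correlated best with its own number. With the replicate block, Fcgr4 was called (log2 0.56, adjusted p = 0.0345), no other member's call changed, and 2450 genes were higher and 2425 lower. Over all genes 2453 were higher and 2645 lower; leaving out 1 library gave 1572 to 2207 higher and 1697 to 2565 lower. With a mean of 5 FPKM or more, 8067 genes were tested, 2305 higher and 1204 lower (median log2 change 0.16). The authors' filtered table gave 2388 higher and 1433 lower of 9585 (median 0.10). The drop was thus mostly in genes called lower, and the genes kept leaned to higher values. Activating signalling genes numbered 10 called, 5 with quantile normalization and 6 to 11 with 1 library left out (the 11, without 3-day replicate 2, were 9 higher and 2 lower); NADPH oxidase genes 5, 2 with quantile normalization and 3 to 5 with 1 library left out. Immunoglobulin genes numbered 2 called, 0 with a mean of 1 FPKM or more, 0 with a mean of 5 FPKM or more and 5 with quantile normalization. Depth in reads per gene is unknown, so no counting error is given.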

Other observations

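The genes around the receptor cluster on chromosome 1 did not share a direction. They were looked at after their values were seen. From Fcrlb to Ufc1 (positions 170906459 to 171295282 in mm10, as the table gives them), 15 genes were tested, the 3 receptor genes included, of which 3 were called higher and 3 lower. These counts are close to the shares of all genes tested, 18.8% higher and 20.3% lower. Beside Fcgr3, the higher genes were Ufc1, which takes part in the conjugation of the ubiquitin-like protein UFM1, from 39.2 ± 11.1 to 79.5 ± 5.74 FPKM (SD, n = 3; limma adjusted p = 0.00758), and Sdhc, a subunit of succinate dehydrogenase, from 68.0 ± 7.95 to 90.0 ± 5.17 FPKM (0.0265). The lower genes included Fcrlb and the protease gene Adamts4, from 4.37 ± 1.69 to 1.57 ± 0.354 FPKM (0.0154).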
